A study of Homo sapiens with 3 samples.

Results

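The MYC locus on chromosome 8 was examined from 127500000 to 131500000 (hg19), a window of 4 Mb that holds the MYC gene, the PVT1 gene and, further downstream, a cluster of blood enhancers. Its members are the HMGA1 peaks whose summit lies in the window, namely 225 of the 263033 peaks called over histone H3 (the H3 list) and 366 of the 385953 peaks called over input DNA (the input list). The data come from chromatin immunoprecipitation followed by sequencing (ChIP-seq) in DAMI cells, an established line of leukaemic cells whose disease state is labelled MPN/AML (myeloproliferative neoplasm, acute myeloid leukaemia), with no treatment named. There were 3 libraries, HMGA1 ChIP, H3 ChIP and input DNA without antibody, with 1 sample each, so no difference has a replicate check and no p-value is given. Both lists were called from the same HMGA1 reads, and a site found in both is not a repeat measurement. The fold and q-value of a peak are the authors' values, used to rank peaks within a list.

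MYC encodes a transcription factor that drives growth and division and is often highly active in leukaemia. PVT1, its neighbour downstream, is a long noncoding RNA gene that often shares in gains of the MYC region. Blood cells also use distal enhancers far downstream of MYC, known as the blood enhancer cluster, which contact the MYC promoter across a stretch poor in protein-coding genes and lie in and around CCDC26, a long noncoding RNA gene. In the RefSeq gene order, used here for names only, CCDC26 is the last long noncoding RNA gene between PVT1 and GSDMC. HMGA1 itself bends and remodels chromatin, holding AT-rich stretches of DNA through its AT hooks.

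The strongest HMGA1 site of the window lay far from MYC, inside the interval 1.7 to 1.9 Mb downstream of the MYC start (130448315 to 130648315) where the blood enhancer cluster is placed. MYC itself carried no peak over H3 and a single low peak over input, and PVT1 carried peaks of at most 35 reads along its length, with median folds above those of the window as a whole. These differences in height along the locus are descriptions of 1 HMGA1 library. The window was chosen by position, but its strong site was chosen by its height over H3, so that height is a description and not a finding of its own, and the enhancer interval was set with the site known.

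The MYC gene (128748315 to 128753680) had no H3-list peak and 1 peak over input, at chr8:128753428-128753622, near the end of the gene and 5.2 kb from its start. The peak held 14 HMGA1 reads at its summit, recovered from the authors' fold and p-value, and was 3.97-fold over input with the input control at its genome-wide floor. This floor, below which no control level is seen, was 2.19 reads for H3 and 2.78 reads for input, and a fold at the floor is understated where a region holds little DNA. The next peak downstream, at chr8:128759713-128760023 in the H3 list, lay 11.5 kb from the MYC start with 18 reads, 4.76-fold over H3 and 5.02-fold over input. It was the only site within 10 kb of the gene called in both lists.

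Close to MYC on its upstream side the HMGA1 peaks were few. In the H3 list the last peak before the gene, at chr8:128583972-128584184, held 21 reads and a 5.4-fold enrichment. The gap from its summit to the next one, across the MYC start, was 175.7 kb, the second longest of 224 gaps between neighbouring summits, whose median was 8.8 kb (quartiles 2.8 and 23.5 kb). The input list had 7 peaks without an H3-list partner in this gap, the MYC peak among them, with 13 to 16 reads each and folds of at most 4.5. Over the whole input list 65.8% of peaks had such a partner, but low peaks had one less often. Outside the window the share was 6.24% at 8 to 13 reads, 25.1% at 14 to 15 and 50.9% at 16 to 17. The nearest of them before the gene, at chr8:128731640-128731831, held 15 reads, its summit 16.6 kb short of the MYC start. The input-list gap across the MYC start was thus only 21.8 kb. It ranked 50 from the longest of 365 gaps, whose median was 6.65 kb. The whole input list had a lower quartile of 15 reads and a median fold of 4.5, and the lowest pileups called in the lists were 11 reads over H3 and 8 over input. No call was made at the MYC start, and a site there below these limits would not be detectable at this depth. A site somewhat above them could also go uncalled over H3. Of the window's input-list peaks with 14 to 15 reads, 23.1% overlapped an H3-list peak, and the window's lowest H3-list summit held 13 reads.

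From the start of the window to MYC, over 1248.3 kb, there were 32.8 peaks per Mb over H3 and 75.3 over input. The median summit held 20 reads over H3 and 16 over input, and the median folds were 4.97 and 4.5. A fold of at least 8 was reached by 2 of its H3-list peaks (4.88%), against 10.1% of the whole list, and by 5 of its input-list peaks (5.32%), against 7.23%. The highest fold of this stretch was at chr8:127830920-127831377 in the H3 list, 917.1 kb upstream of the MYC start, with 33 reads, 8.46-fold over H3 and 8.99-fold over input. Between MYC and PVT1 the H3 list had 4 peaks and the input list 5. The highest of them, at chr8:128790666-128790909 in the H3 list and 42.5 kb from the MYC start, held 29 reads, with 7.34-fold over H3 and 7.93-fold over input.

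PVT1 (128806779 to 129113499, 306.7 kb) carried 21 H3-list and 26 input-list peaks, and all 21 had an input-list partner, as did 98.3% of the whole H3 list. Their density was 68.5 peaks per Mb over H3 and 84.8 over input. PVT1 summits held 15 to 35 reads in the H3 list with a median of 25, and 12 to 35 reads in the input list with a median of 23.5. Their median folds were 5.99 (H3 list) and 5.96 (input list), against 5.52 and 5.02 in the enhancer interval. Of them 2 (9.52%) and 3 (11.5%) reached a fold of at least 8, against 10.1% and 7.23% of the whole lists. The control was at its floor at 17 of the 21 H3-list peaks, against 42.9% of the whole H3 list, and at 19 of the 26 input-list peaks, against 36.4% of the whole input list. Most PVT1 peaks thus had their control at the floor, and whether it lay below the floor there was not seen.

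The highest PVT1 peak, at chr8:129083826-129084114 in the H3 list, lay 335.6 kb from the MYC start, towards the end of the gene. It held 35 reads, 8.95-fold over H3 and 9.52-fold over input, both controls at their floor. A peak at chr8:128907624-128907901 (H3 list) held 32 reads and was 8.21-fold over H3 with H3 at its floor, but 5.83-fold over input, where input stood at 1.68 times its floor. Other sites, at chr8:128825277-128825585 and chr8:129027168-129027444, held 31 reads each and were 7.96-fold over H3 and 8.46-fold over input. No peak lay at the PVT1 start itself. The nearest H3-list summit was 9.94 kb inside the gene, in a peak of 15 reads and a 4.01-fold enrichment at chr8:128816535-128816832, and the nearest input-list summit was 2.13 kb before the start, in a peak of 17 reads without an H3-list partner at chr8:128804563-128804759. In both lists a stretch of 64.8 kb without a summit ran from 105.5 to 170.3 kb into PVT1. Exons and introns of PVT1 were not analysed here.

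**Figure D1:**
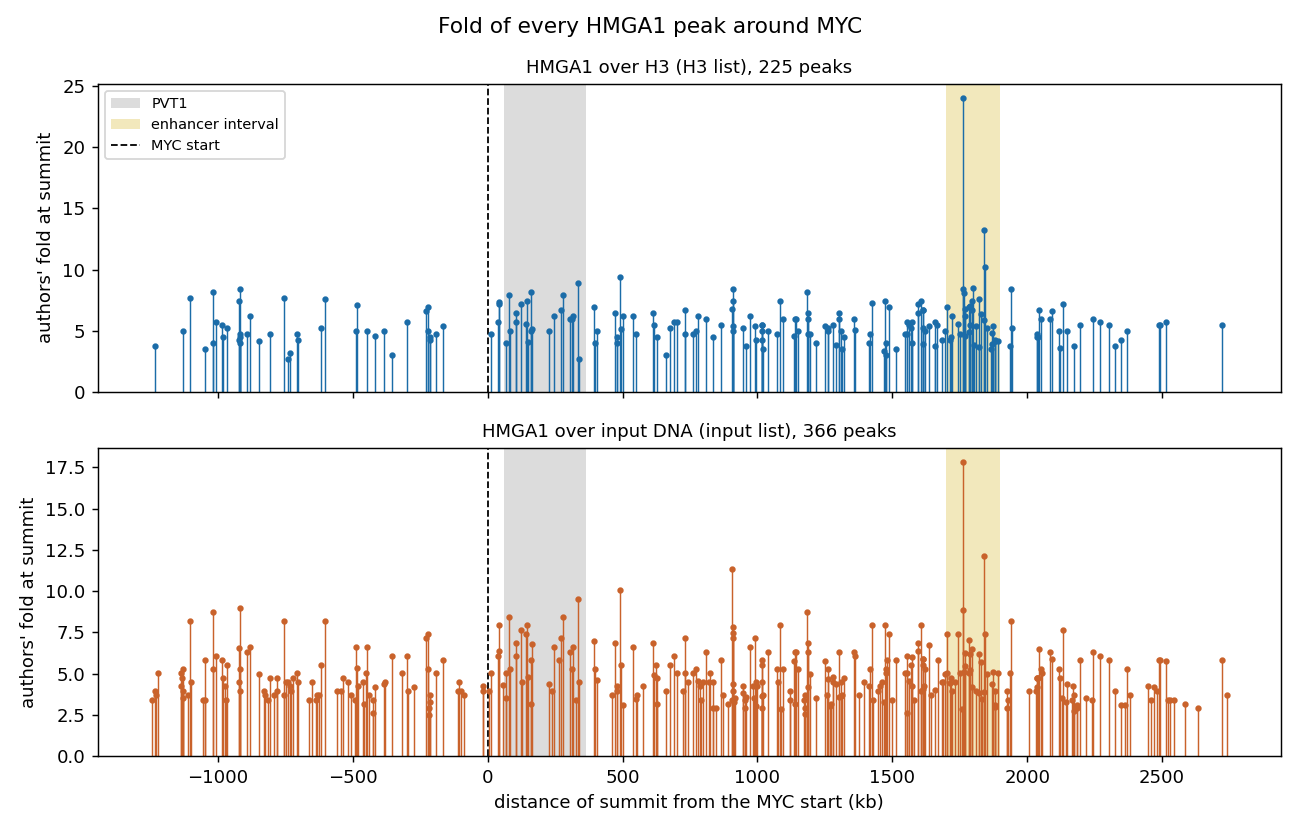
The authors' fold at the summit of each HMGA1 peak (vertical axis) is plotted against the distance of the summit from the MYC start in kb, for the 225 H3-list peaks (upper panel) and the 366 input-list peaks (lower panel). The dashed line marks the MYC start, the grey band PVT1 and the yellow band the enhancer interval, which holds the 2 highest folds of each list.

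Between PVT1 and the enhancer interval, over 1334.8 kb, the H3 list had 97 peaks, with a median of 21 reads, and the input list 152, with a median of 18. A peak at chr8:129239790-129240141 (H3 list), 491.7 kb from the MYC start, was the highest fold of this stretch over H3, with 37 reads, 9.44-fold over H3 and 10.05-fold over input. The site with most reads between PVT1 and the interval was at chr8:129652803-129653231 (H3 list), 904.7 kb from the MYC start, with 42 reads. It was 6.81-fold over H3, where H3 stood at 1.83 times its floor, but 11.4-fold over input, with input at its floor. It was the only 1 of the window's 88 summits at the same base in both lists where H3 exceeded input by more than 1.5 times, each relative to its floor. The same order was found at 4.12% of the other 113962 such summits. Shared peaks of the window with summits some bases apart were not in this count, and several of them had the same order. At chr8:128394325-128394525 (H3 list), for example, H3 stood at 2.29 times its floor, with input at its floor.

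The enhancer interval was the densest segment of the window in both lists, apart from MYC itself, where 1 input-list peak fell in 5.4 kb. It held 36 H3-list and 35 input-list peaks in 200 kb, or 180 and 175 peaks per Mb, against 49.7 and 87.1 in the rest of the window, a ratio of 3.62 over H3 and 2.01 over input. In reads, peaks there were also taller than in the rest of the window. The median summit held 25.5 reads in the H3 list against 21 in the rest of the window, and 25 reads in the input list against 17. Of the H3-list peaks in the interval 55.6% held 25 reads or more, against 26.5% in the rest of the window, and in the input list 54.3% did so, against 15.1%. Over the whole lists the shares with 25 reads or more were 41.3% and 28.3%. Of the 5 sites of the window with 40 reads or more, 4 lay in the interval in either list. The strong site, chosen by its height, is among these 4. It is also in the interval's counts at 25 reads or more and at a fold of at least 8. A fold of at least 8 was reached by 6 of its H3-list peaks (16.7%), against 10.1% of the whole list. In the input list 3 of its peaks (8.57%) did so, close to the 7.23% of the whole list.

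Control levels moved with these counts. The median control level at peaks of the interval was 1.21 times the floor for H3 and 1.52 times for input, whereas the median over every other segment that had peaks was at the floor in both lists. Along the interval these levels were uneven. In the 100 kb bin centred 1701.7 kb from the MYC start, which begins before the interval, both medians equalled the floor. Single peaks there stood above it. In the bin centred at 1801.7 kb, wholly inside the interval, the medians were 1.22 (H3) and 1.6 (input) times the floor. In the bin at 1901.7 kb, which runs past the interval, both were 1.2 times. Where the control is raised, a call takes more HMGA1 reads, and the part of the control level in the taller peaks was not tested. In fold the interval differed less, with medians of 5.52 (H3 list) and 5.02 (input list), against 5.25 and 4.5 in the rest of the window. From read counts and peak density, more copies of the interval cannot be told apart from more HMGA1 on each. Among tiles of 200 kb over the autosomes outside the window, 13.5% of 14368 held more H3-list peaks than the interval and 27.7% held more input-list peaks. The medians of these tiles were 13 and 22 peaks. The interval was thus denser than its surroundings and above the tile median, but many tiles were denser still.

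**Figure D2:**
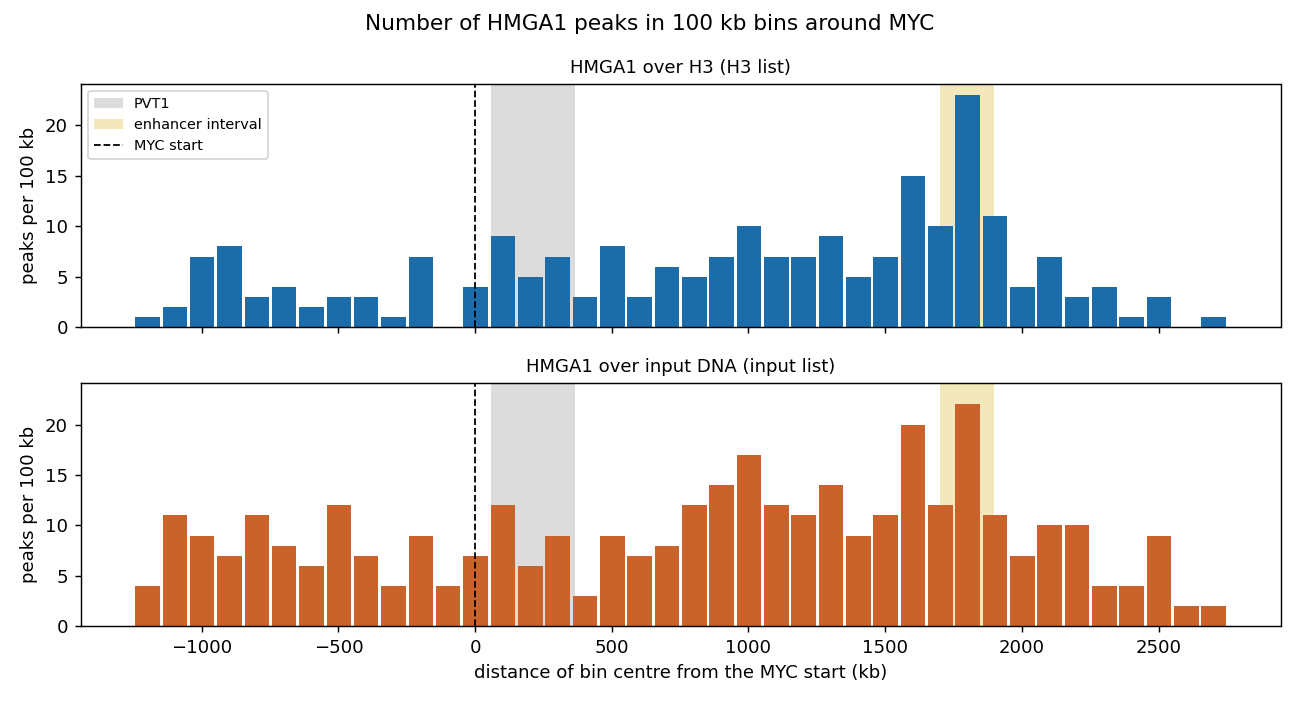
Bars give the number of HMGA1 peaks per 100 kb bin, by distance of the bin centre from the MYC start in kb, over H3 (upper panel) and over input DNA (lower panel), with PVT1 in grey and the enhancer interval in yellow. The tallest bar in both panels, centred 1801.7 kb from the MYC start, holds 23 H3-list and 22 input-list peaks, against a median of 5 and 9 per bin.

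The strong peak of the interval, at chr8:130507759-130510074 in the H3 list and ending at 130510083 in the input list, had its summit 1761.5 kb downstream of the MYC start. HMGA1 reached 96 reads there, 24-fold over H3 and 17.8-fold over input. H3 was at its floor at the summit, and input stood at 1.6 times its floor with 4.45 reads. The peak ranked 4 by fold and 36 by q-value among all 263033 peaks of the H3 list, and 23 by fold and 70 by q-value in the input list. It was also broad. At 2316 bp over H3 and 2325 bp over input it ranked 38 and 72 by width, and the next widest peaks of the window were 798 bp and 1236 bp. The summit was off centre, 2033 bp after the start of the peak and 282 bp before its end in the H3 list.

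Other peaks crowded the downstream side of this site. Within 10 kb the H3 list had 1 peak before it and 5 after it, and the input list had 2 before and 4 after. The nearest, at chr8:130510711-130511026 (H3 list), held 33 reads, 8.46-fold over H3 and 8.84-fold over input. The next, at chr8:130514236-130514595, held 36 reads and was 8.1-fold over H3 but 5.12-fold over input, where input stood at 2.24 times its floor. Upstream, the peak at chr8:130500947-130501155 held 18 reads, and an input-list peak at chr8:130505569-130505755 held 12.

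A second tall site lay 1840.3 kb from the MYC start at chr8:130588181-130588803 (H3 list). It held 65 reads, 13.2-fold over H3 and 12.1-fold over input, and ranked second in the window by fold and by q-value in both lists. A peak 1845.2 kb from the MYC start, at chr8:130593410-130593784 in both lists, held 46 reads and was 10.2-fold over H3 and 7.42-fold over input. At 1797.2 kb the input list had 1 peak, chr8:130545371-130546242, with 46 reads and a 6.5-fold enrichment. The H3 list split this site into 2 peaks, at chr8:130545365-130545672 with 46 reads and 7.44-fold, and at chr8:130545849-130546246 with 39 reads and 8.49-fold. H3 was 1.83 and 1.25 times its floor at the H3-list summits, and input 2.24 times its floor at the input-list summit.

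H3 was less raised above its floor than input DNA was at these enhancer sites. The interval had 15 summits placed at 1 base by both lists, and relative to its floor H3 was the higher at 2 of them and input at 13. In the rest of the window H3 was the higher at 16 of 73 such summits, input at 19, and 38 were within 0.02 of each other in units of the floor. Input exceeded H3 by more than 1.5 times at 6 of the 15 summits and at 3 of the 73, and over all other same-base summits of the lists at 11.8%. HMGA1 reads were multiplied by a fitted 0.787 in the H3 list and by 1 in the input list. Total read numbers are unknown, and the part of the depths of H3 and input in this difference was not tested.

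**Figure D3:**
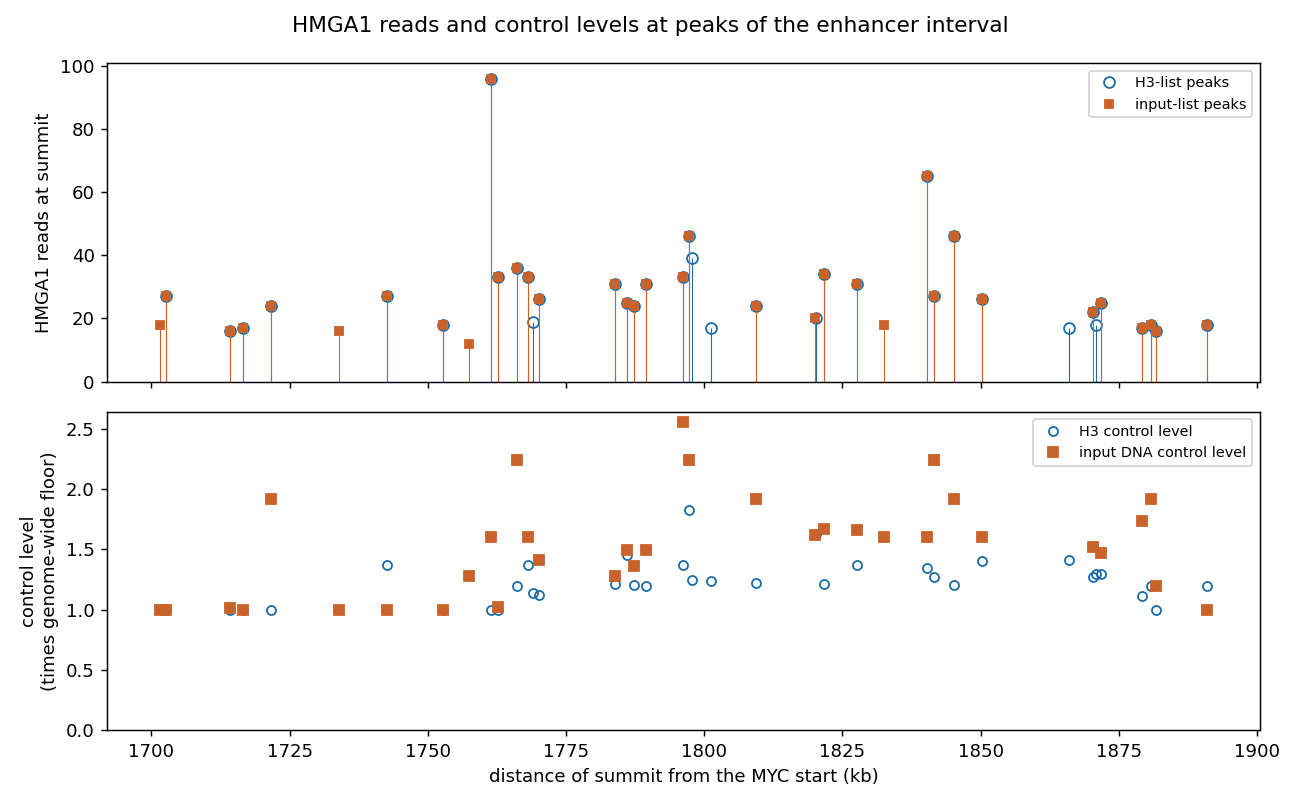
The upper panel gives the recovered HMGA1 reads at each summit of the enhancer interval, and the lower panel the control level at the same summits in multiples of its genome-wide floor, by distance from the MYC start in kb (open circles, H3 list; filled squares, input list). The 96-read and 65-read summits stand 1761.5 and 1840.3 kb from the MYC start, and most input levels lie above the H3 levels.

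Past the enhancer interval the peaks thinned out again. Over 851.7 kb there were 30.5 peaks per Mb over H3 and 62.2 over input, and the highest fold was at chr8:130689641-130690103 (H3 list), 1941.6 kb from the MYC start, with 33 reads, 8.46-fold over H3 and 8.17-fold over input. The longest stretch without an H3-list summit in the window, 208.7 kb from 131263699 to 131472447, lay here. At the window's left edge the last peaks outside it held 30 reads in both lists, and the first inside held 14 reads over H3 and 12 over input. At the right edge the last peaks inside held 21 and 13 reads, and the first outside 17 and 16.

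As a whole the window was sparser in HMGA1 peaks than the rest of its chromosome. It held 56.2 peaks per Mb over H3 and 91.5 over input, against 84.6 and 127.3 in the rest of chromosome 8, or 0.665 and 0.719 times as many. Of 705 tiles of 4 Mb over the autosomes outside the window, 64.1% held more H3-list peaks and 63.8% more input-list peaks. Few peaks were high. A fold of at least 8 was reached by 14 H3-list peaks (6.22%), against 10.1% of the whole list, and by 15 input-list peaks (4.1%), against 7.23%. The median fold, 5.36 over H3 and 4.5 over input, was close to that of the whole lists, 5.25 and 4.5, but medians of called peaks leave out all sites below the limit for a call. The H3 control was at its floor at 67.1% of the window's peaks, against 42.9% of the whole list, and the input control at 68.6%, against 36.4%. Whether the control lay below the floor at these peaks was not seen, so the low counts of the window do not compare HMGA1 per copy of DNA, and fewer copies of the region cannot be told apart from less HMGA1 on each.

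Nearly every H3-list peak of the window had an input-list partner, and the reverse held for the taller peaks only. With an overlap of at least 1 bp, 221 of the 225 H3-list peaks had a partner (98.2%, Wilson 95% interval 95.5 to 99.3, counting error only), against 98.3% of the whole list. Of the 366 input-list peaks 217 did (59.3%, 54.2 to 64.2), against 65.8% of the whole list. The 149 without a partner held 9 to 21 reads, with a median of 14, against a median of 22 for those with one. They were unevenly placed. The share with a partner was 42.6% (33.0 to 52.6) upstream of MYC, 80.8% (62.1 to 91.5) in PVT1 and 88.6% (74.0 to 95.5) in the enhancer interval. Peak height differed in the same order, with median input-list reads of 16, 23.5 and 25. The shares of these segments were not compared at equal height. The 4 H3-list peaks without a partner held 17 to 20 reads, and 3 of them lay in the enhancer interval.

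Among peaks of equal height the window's shares were close to those of the rest of the list. Among input-list peaks with 14 to 15 reads 23.1% (13.7 to 36.1) of the window's had a partner, against 25.1% of all others, and with 16 to 17 reads 43.6% (31.4 to 56.7), against 50.9%. With 18 to 20 reads the shares were 82.3% (71.0 to 89.8) and 79.2%. With 25 reads or more all 69 of the window's peaks had a partner (94.7 to 100), against 98.5% of all others. In each of these classes, and in those of 8 to 13 and 21 to 24 reads, the interval around the window's share held the share of the other peaks.

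**Figure D4:**
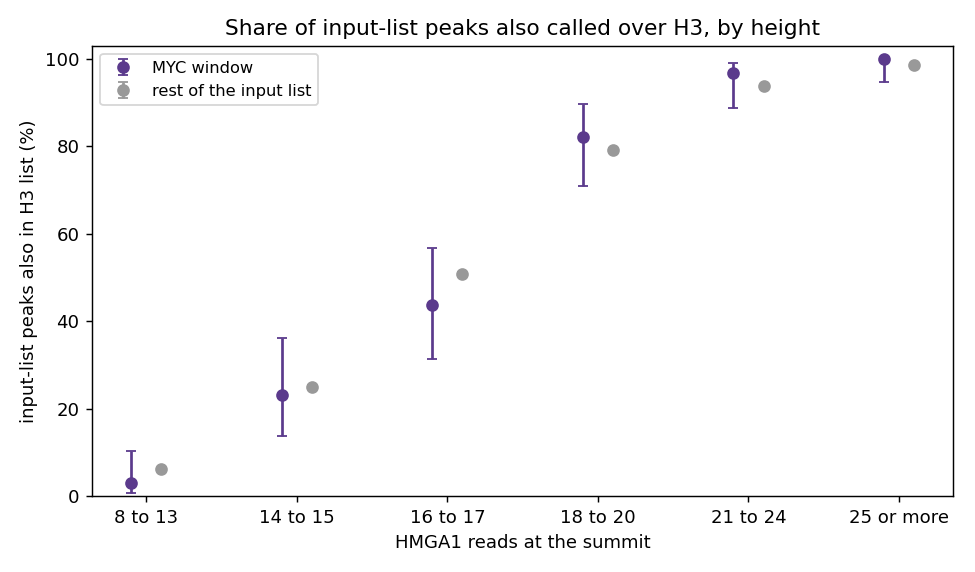
The share of input-list peaks that overlap an H3-list peak is given in percent by HMGA1 reads at the summit, for the MYC window (purple) and for all other input-list peaks (grey), with Wilson 95% intervals for counting error. The window's shares run from 2.98% at 8 to 13 reads to 100% at 25 reads or more, and each interval holds the grey point.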

How the data were processed

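DAMI cells gave 3 libraries, HMGA1 ChIP, H3 ChIP and input DNA, grouped by the antibody or title in the labels. Peaks were called by the authors with MACS2 on hg19, per the submitters' processing notes. No source used here gives its version, the aligner or the read filters. Each deposited list gives a peak's interval and summit, a fold ratio of HMGA1 over its control, p-values and q-values as −log10, and a score, which was not used. Peak names begin with another prefix than HMGA1; the lists' names and the labels were followed in reading them as HMGA1 peaks.

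Total read numbers are unknown. HMGA1 reads and control levels at summits were recovered from fold and p-value, with the fold read as (pileup + 1)/(control + 1) and the p-value as an upper Poisson tail. A whole pileup came within 0.001 of the −log10 p-value at 385953 of 385953 input-list peaks and, with HMGA1 multiplied by 0.787 (fitted on 400 peaks), at 263031 of 263033 H3-list peaks, the window's included. Since this factor is applied before 1 is added, folds of the 2 lists do not differ by control alone. On simulated data 100% of 19873 unscaled and 99.7% of 19698 scaled peaks were recovered.

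Gene positions, the window and the enhancer interval come from the rule that chose the members; members, intervals and tests were chosen with earlier results of these data known. Peaks were named as the 10 highest by fold or q-value per list and the leading peaks of each segment, with those within 10 kb of MYC or of the strong peak. A chromosome was counted up to its last peak base. Coordinates are 1-based. Alternatives were stricter q-values, folds and read numbers, other borders and other overlaps. The tools were scipy 1.17.1, pandas 2.3.3 and numpy 2.4.6 under Python 3.11.15, with plots by matplotlib 3.10.9.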

Additional observations from a re-analysis of the deposited data

How the results depend on the processing

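No paired analysis was possible because each antibody had 1 library, and for the same reason no replicate could be left out. The ratio of peak density in the window to that in the rest of chromosome 8 stayed below 1 and within 1.5 times of its value under every alternative tried for it, from 0.557 to 0.772 over H3 and from 0.551 to 0.796 over input. The alternatives that moved other values were the following, and the cause was not tested except where fewer peaks or partners follow from the limit itself. With at least 25 reads the window held 17.5 (H3 list) and 17.2 (input list) peaks per Mb and the enhancer interval 100 and 95, the median folds were 7.0 and 7.14, and the shares with a partner 100% and 100%. At −log10 q-values from 5 up the median folds were 5.66 and 5.29, the share of input-list peaks with a partner was 69.3%, and 0 input-list peaks overlapped MYC. At folds from 4 up the input list had 59.5 peaks per Mb in the window and a median fold of 5.29, and the shares with a partner were 88.8% (H3 list) and 73.1% (input list). This limit held for both lists, so a partner under 4-fold was no longer counted. With 50% of both peaks shared, 90.2% of H3-list peaks had a partner. With 10 kb added at each end, MYC had 1 H3-list and 2 input-list peaks. Sites under 11 HMGA1 reads (H3 list) or 8 (input list) were not detectable at this depth, and sites somewhat above 11 reads could also go uncalled over H3.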
